A study of Homo sapiens with 24 samples.

Results

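The 9 genes described here act in the spindle assembly checkpoint and in the control of anaphase by the anaphase-promoting complex. The core subunits of that complex are described apart. The 9 genes were followed in LNCaP cells after siRNA against the long non-coding RNAs TAPIR-1 and TAPIR-2. The genes were BUB1, BUB1B, MAD2L1, TTK, CDC20, PTTG1, ESPL1, FBXO5 and UBE2C, and their probes were those whose RefSeq accession belongs to one of these genes. This gave 9 probes, 1 per gene and the same ones at both time points, among 29033 RefSeq-named probes of 20992 genes at 24 h and 31104 probes of 22439 genes at 48 h. LNCaP is an established human prostate cancer cell line grown from a lymph node metastasis, and all cells were electroporated with 1 siRNA duplex. The groups were a control duplex that matches no known human mRNA closely (si-SCRL), a duplex against TAPIR-1 (si-A1) and a duplex against TAPIR-2 (si-A2). For each siRNA and each time point, 24 h and 48 h, 4 biological replicates were hybridised to 1-colour Agilent arrays, version 2 of the design at 24 h and version 3 at 48 h. Both siRNA groups of a time point were compared with the same si-SCRL arrays, and each TAPIR transcript was targeted by 1 duplex on these arrays.

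The spindle assembly checkpoint delays anaphase until every chromosome is attached to the spindle. At unattached kinetochores the kinases TTK (also called MPS1) and BUB1 recruit BUB1B (BubR1) and MAD2L1 (MAD2), and the latter proteins bind CDC20 in an inhibitory complex. Free CDC20 activates the anaphase-promoting complex (APC/C), a ubiquitin ligase that works with the conjugating enzyme UBE2C. The APC/C then marks securin, the product of PTTG1, for destruction, which releases separase, the product of ESPL1, to cut the cohesin rings that hold sister chromatids together. FBXO5 encodes EMI1, which holds the APC/C inactive in S and G2 phase. Transcripts of most of these genes are made mainly in late S, G2 and M phase of cycling cells, so they are known as markers of proliferation in tumours, prostate tumours included.

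One array stood apart. The second si-A2 replicate at 48 h had a median processed intensity of 13.95, against 20.4 to 32.2 on the other 11 arrays of that time point and 24.4 to 57.2 on the 12 arrays at 24 h, and it was left out, which leaves 3 si-A2 arrays at 48 h. The share of probes well above background, by the scanner software's own call, was 58.5% to 71.7% at 24 h and 60.3% to 66.5% at 48 h. Luminal prostate markers were well above background on every array for 9 of 9 genes at both times, KLK2 among them. Among markers of immune, stromal, endothelial and basal cells this held for 6 of 12 genes at 24 h and 4 of 11 at 48 h. COL1A2 and KRT5 were among those not well above background on any array. The summed linear level of the luminal markers was 34250 to 51960 with si-SCRL, 28870 to 34500 with si-A1 and 33700 to 40060 with si-A2 at 48 h, where KLK2 fell with si-A1 (log2 fold change -1.07). That of the other cell types' markers was 1208 to 1578, 1320 to 1754 and 1088 to 1560, and none of them was called. The part of these markers in the results below was not tested. The TAPIR-2 probe that both array versions share read, on the normalized log2 scale, 5.04 ± 0.20 with si-SCRL (SD, n = 4), 4.64 ± 0.32 with si-A1 (n = 4) and 4.06 ± 0.74 with si-A2 (n = 4) at 24 h. Its difference between si-A2 and si-SCRL was -0.98 at 24 h (adjusted p = 0.230) and 0.23 at 48 h (adjusted p = 0.700). TAPIR-1 had no probe with its accession.

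Promoters are shown first because several of them hold the letters TTTGAA. These are the letters of the cell cycle genes homology region (CHR), a short element that gives many mitotic genes their shared late cell cycle timing. In the RefSeq promoter table of GRCh38.p14, 7 of the 9 genes had an entry. TTK and UBE2C had none. In the 250 bases before a start site, on either strand, TTTGAA lay before BUB1B, CDC20, ESPL1 and FBXO5 (4 genes), and 13.3% of all 35116 promoters held it. A gene counted when any of its start sites had the match, while the shares of all promoters count each promoter. The letters of the CCAAT box, CCAAT, were found for 6 genes, all but BUB1B, and in 32.0% of all promoters. The CHR variant TTCGAA (1.19% of all promoters) and the E2F cores TTGGCGC (2.56%) and GCGGGAA (5.52%) were found for 0 of the 7 genes. The stretches below run 5′ to 3′ on the gene's strand, and capitals mark TTTGAA and CCAAT or their reverse complements, TTCAAA and ATTGG. They contrast promoters that hold TTTGAA close to the start (BUB1B, CDC20, ESPL1 and 1 of 2 annotated start sites of FBXO5, of which the other holds none of these letters) with that of PTTG1, which holds only CCAAT.
BUB1B (chr15:40160949-40161068, plus strand): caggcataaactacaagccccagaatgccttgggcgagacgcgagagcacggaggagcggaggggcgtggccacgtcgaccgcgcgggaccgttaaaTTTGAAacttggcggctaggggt
CDC20 (chr1:43358861-43358980, plus strand): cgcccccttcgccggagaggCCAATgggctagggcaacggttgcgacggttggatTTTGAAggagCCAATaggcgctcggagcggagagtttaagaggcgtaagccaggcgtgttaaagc
ESPL1 (chr12:53268179-53268298, plus strand): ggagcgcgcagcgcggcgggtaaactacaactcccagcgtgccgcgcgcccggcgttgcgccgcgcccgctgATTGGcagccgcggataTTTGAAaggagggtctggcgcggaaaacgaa
FBXO5 (chr6:152983064-152983093, minus strand): ttaggcaccaaaTTCAAAgattttaaaagt
PTTG1 (chr5:160421735-160421854, plus strand): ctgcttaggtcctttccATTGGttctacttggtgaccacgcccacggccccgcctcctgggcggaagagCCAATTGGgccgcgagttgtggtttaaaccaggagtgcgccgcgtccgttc
A match of letters describes the sequence and is not evidence that a factor binds there.

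All 9 genes read lower after either siRNA at both time points, and how many passed the test differed between the comparisons. The call needed an adjusted p below 0.01 (limma, Benjamini-Hochberg over all probes above background) and a log2 fold change of 0.5 or more in size. With si-A1 at 24 h, BUB1B, MAD2L1, TTK, CDC20 and PTTG1 fell, 5 of the 9, where 1.02% of all 44849 probes tested were called lower. With si-A2 at 24 h, BUB1, BUB1B, MAD2L1, TTK, CDC20 and FBXO5 fell, 6 of the 9, against 0.838% of all probes. With si-A1 at 48 h all 9 fell, against 3.98% of all probes. With si-A2 at 48 h only CDC20 and PTTG1 passed, 2 of the 9, against 0.376% of all probes, though 7 of the 9 had an adjusted p below 0.05. In either direction, 1.1% (si-A1) and 0.928% (si-A2) of all probes were called a day after transfection, and 6.11% and 0.445% at 48 h. No member was called higher in any of these comparisons, where 0.0803% and 0.0892% of all probes were at 24 h, and 2.13% and 0.0686% at 48 h. The median log2 fold change of the 9 genes was -1.28 (si-A1) and -1.30 (si-A2) at 24 h, where that of all probes was 0.04 in both, and -2.60 and -1.48 at 48 h, where that of all probes was 0.05 and 0.00. RNA from whole cultures cannot tell fewer cells in a cell cycle phase from less RNA per cell.

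**Figure D1:**
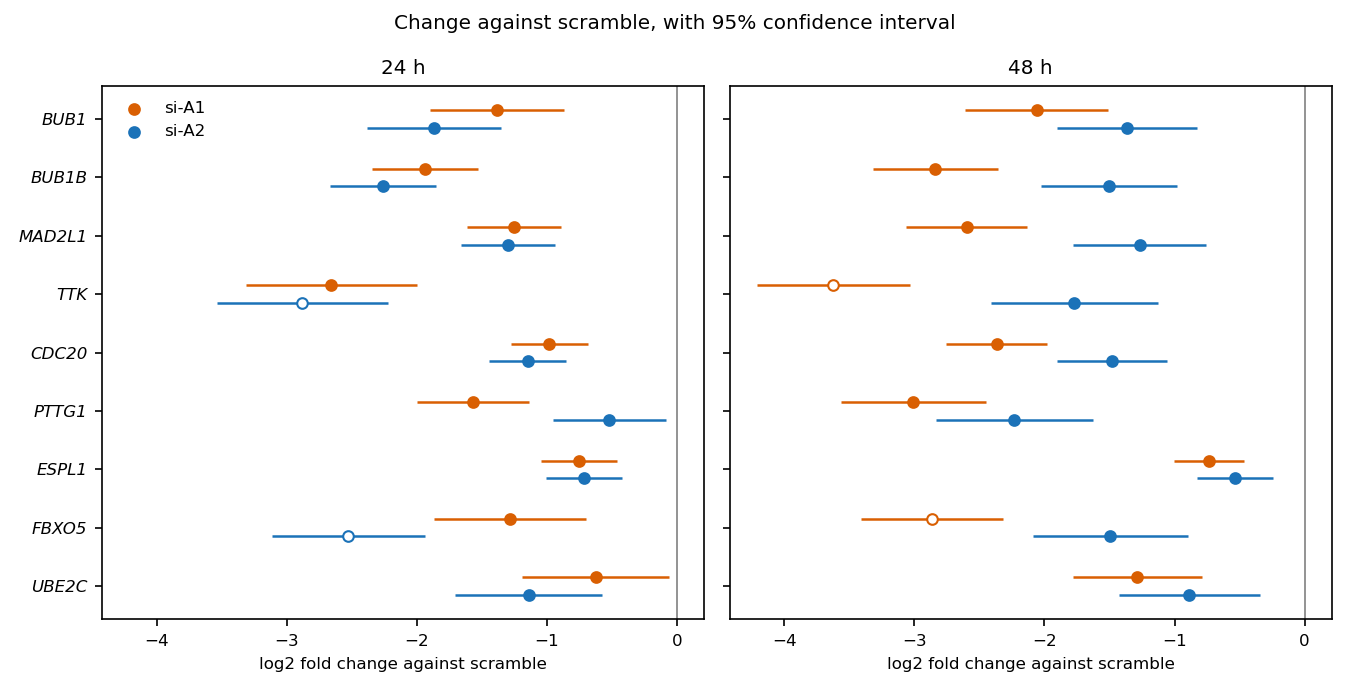
Log2 fold change against si-SCRL (horizontal axis) of each of the 9 genes at 24 h (left) and 48 h (right), with the 95% confidence interval of the limma fit; orange is si-A1, blue is si-A2, and open points mark groups that lay near background on all their arrays. Every point lies left of 0, where the fitted value of an open point is not a measured size. Among filled points, the si-A1 estimates at 48 h reach from -0.73 (ESPL1) to -3.01 (PTTG1).

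At each time point, replicates 1 and 2 lay on 1 slide and replicates 3 and 4 on the other, and within each slide, 1 of which held a single si-A2 array at 48 h, every member read lower than si-SCRL in all 4 comparisons. Leaving out TTK and FBXO5 where a whole group lay near background, the si-A1 differences within slides ran from -3.07 to -0.56 at 24 h, and from -3.01 to -0.69 a day later. Those of si-A2 ran from -2.56 to -0.49 and from -2.26 to -0.49. At 48 h, deviations from the group means correlated by a median of 0.217 between replicates of the same number and by 0.189 between other arrays of a slide. There a fit with the replicate number as a block in place of the slide called 8 members for si-A1 (UBE2C had an adjusted p of 0.0141) and 0 for si-A2 (CDC20 0.0241, PTTG1 0.0128). Over all probes that fit called 1797 for si-A1 in place of 2761, and 0 of 45197 for si-A2 in place of 201. With the dim array kept, 1 member was called for si-A1 at 48 h and 0 for si-A2. That fit called 27 of 47168 probes for si-A1 in place of 2761, and 0 of 47172 for si-A2 in place of 201. At 48 h the si-A2 count was also 0 whichever of the 11 arrays was left out (adjusted p of 0.0140 to 0.0288 for CDC20 and 0.0113 to 0.0337 for PTTG1), where 0 to 79 of all probes were called against 201 with all arrays. The si-A1 count at 24 h was 3 without si-A1 replicate 2 or replicate 4, where MAD2L1 (adjusted p = 0.0103 and 0.0102) and CDC20 (0.0157 and 0.0124) were lost. All arrays of either siRNA lay below every si-SCRL array for 8 of the 9 genes at 24 h, UBE2C being the exception with both siRNAs, and for 9 of 9 at 48 h. Over all probes the same held at 24 h for 5.4% (si-A1) and 4.42% (si-A2), and at 48 h for 8.84% and 7.27%. The reverse, every array above si-SCRL, held for 0 members and for 3.92%, 3.22%, 6.77% and 4.03% of all probes.

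**Figure D2:**
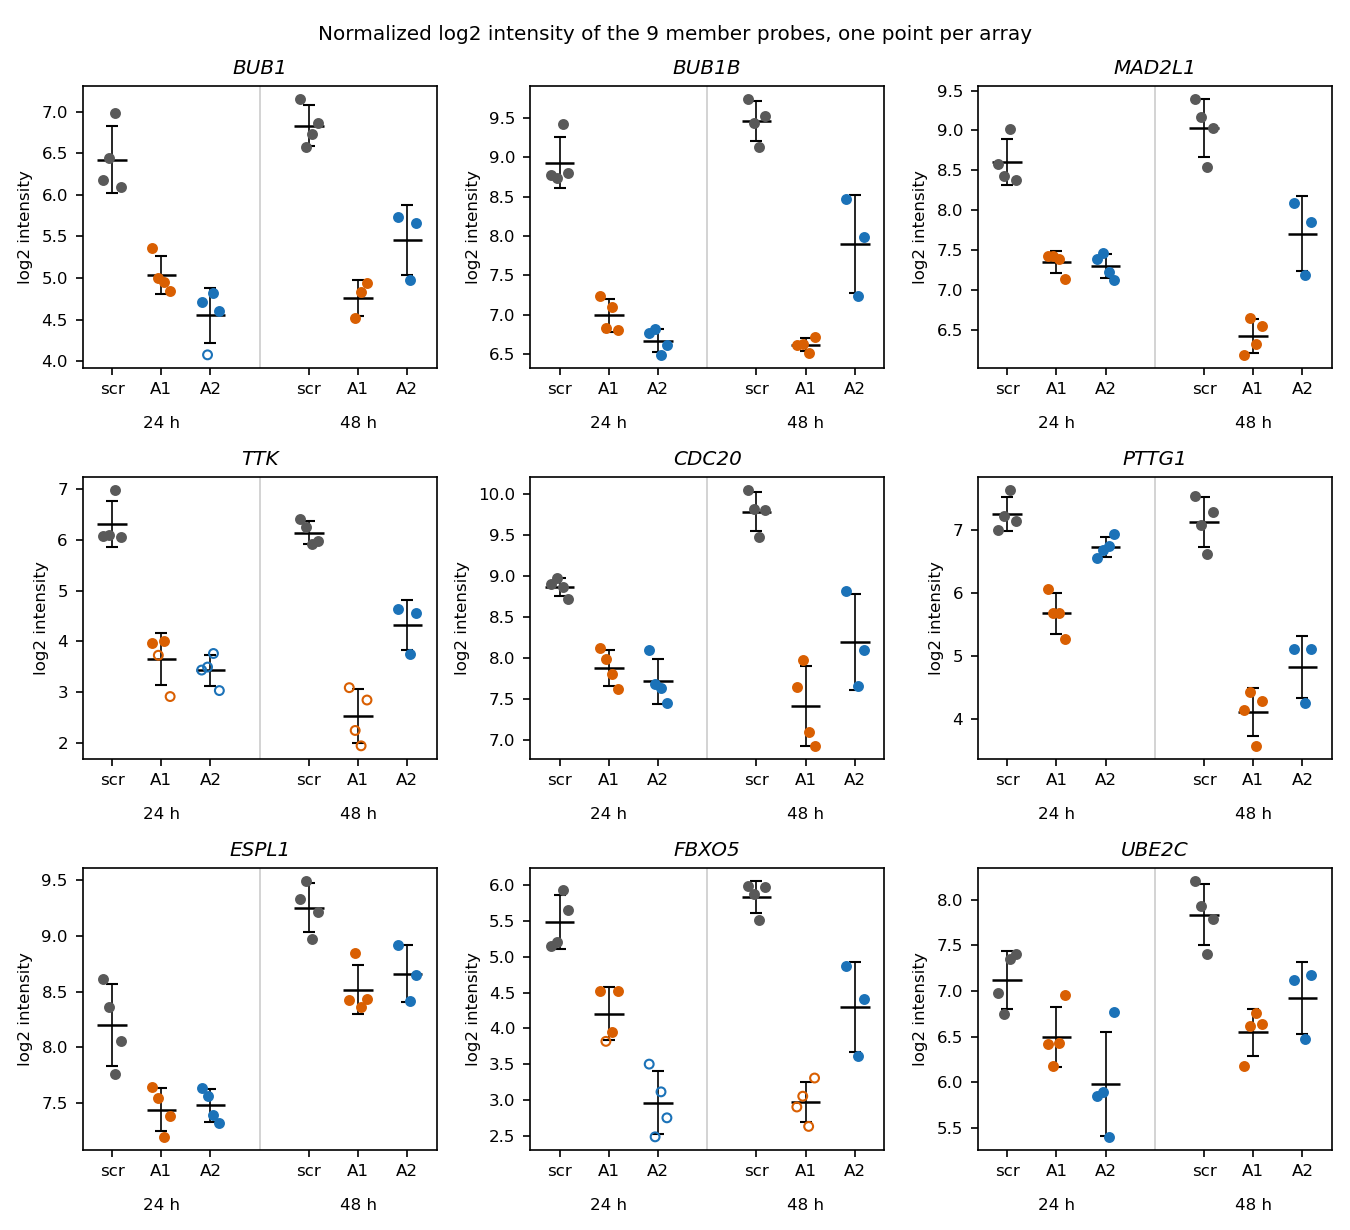
Normalized log2 intensity (vertical axis, each panel on its own scale) of the 9 probes on every array used, by siRNA and time point (scr is si-SCRL); each point is 1 array, open points were not well above background, and black lines give the group mean and SD. The si-A1 and si-A2 arrays sit below the si-SCRL arrays in every panel but that of UBE2C at 24 h, and the si-A2 arrays at 48 h lie between the other 2 groups in BUB1, BUB1B, MAD2L1, TTK and FBXO5.

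The checkpoint kinases come first. BUB1 (chr2:110637528-110678063) encodes a kinase that docks at kinetochores and marks centromeric histone H2A. At 24 h, BUB1 read a normalized log2 intensity of 6.17, 6.44, 6.99 and 6.09 on the si-SCRL arrays, 5.36, 4.99, 4.95 and 4.84 with si-A1 and 4.71, 4.08, 4.82 and 4.61 with si-A2. The 3 groups did not overlap, with si-A2 lowest. This was 2.61-fold lower with si-A1 (log2 fold change -1.38 ± 0.23 SE), just short of the call at an adjusted p of 0.01001, and 3.65-fold lower with si-A2 (-1.87 ± 0.23, adjusted p = 0.00156). At 48 h, BUB1 read 7.15, 6.57, 6.73 and 6.86 with si-SCRL, 4.52, 4.83 and 4.94 on 3 si-A1 arrays, and 5.74, 4.98 and 5.66 with si-A2, so the order of the siRNA groups was turned. The fall with si-A1 was 4.17-fold (-2.06 ± 0.24, adjusted p = 0.00122), and the si-A2 value was -1.36 ± 0.23 (adjusted p = 0.0252). The spot of si-A1 replicate 1 at 48 h was flagged as an outlier by the scanner software and left out of these values. Read without the flag it was 9.02, above all si-SCRL arrays, and with that value BUB1 was no longer called (log2 fold change of BUB1 with si-A1 -1.002, adjusted p = 0.494).

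TTK (chr6:80004649-80042527), the kinase that starts checkpoint signalling, lay near background with either siRNA at 24 h and with si-A1 at 48 h. At 24 h, TTK read 6.07, 6.10, 6.99 and 6.06 with si-SCRL, 3.97, 3.72, 4.00 and 2.91 with si-A1 and 3.43, 3.49, 3.76 and 3.03 with si-A2. The siRNA groups overlapped each other and lay far below si-SCRL. With si-A1 the probe was well above background on 2 of 4 arrays and the fall was 6.31-fold (log2 fold change -2.66 ± 0.30 SE, adjusted p = 0.000732). With si-A2 this held for none, which makes the fall at least 4.87-fold (adjusted p = 0.000462). An "at least" value sets the brighter group's mean against the higher, per array, of the probe's own value and the lowest signal that was well above background. At 48 h, TTK read 6.42, 6.26, 5.92 and 5.98 with si-SCRL, 3.08, 2.24, 1.94 and 2.84 with si-A1 and 4.63, 3.75 and 4.56 with si-A2. The 3 groups were separate, with si-A2 in the middle. The fall with si-A1, where no array was well above background, was at least 7.64-fold (adjusted p = 7e-05), and si-A2 stood at -1.77 ± 0.28 (adjusted p = 0.0174).

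BUB1B (chr15:40161069-40221123) encodes the subunit of the inhibitory complex that blocks CDC20 as a pseudosubstrate. At 24 h, BUB1B read 8.77, 8.73, 9.42 and 8.81 with si-SCRL, 7.24, 6.83, 7.10 and 6.81 with si-A1 and 6.77, 6.81, 6.49 and 6.61 with si-A2. Replicate 3 of si-SCRL was the highest, and the siRNA groups met at 6.81. The fall was 3.83-fold with si-A1 (log2 fold change -1.94 ± 0.18 SE, adjusted p = 0.000295) and 4.78-fold with si-A2 (-2.26 ± 0.18, adjusted p = 9.9e-05). At 48 h, BUB1B read 9.74, 9.44, 9.12 and 9.53 with si-SCRL, 6.61, 6.64, 6.52 and 6.72 with si-A1 and 8.48, 7.24 and 7.99 with si-A2. The si-A1 arrays lay close together, the si-A2 arrays further apart, and no groups overlapped. The fall with si-A1 was 7.15-fold (-2.84 ± 0.21, adjusted p = 8.2e-05), and si-A2 stood at -1.50 ± 0.23 (adjusted p = 0.0158).

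MAD2L1 (chr4:120055623-120066848) encodes MAD2, which changes its conformation when it captures CDC20. At 24 h, MAD2L1 read 8.58, 8.43, 9.02 and 8.38 with si-SCRL, 7.43, 7.43, 7.40 and 7.15 with si-A1 and 7.40, 7.46, 7.23 and 7.13 with si-A2. Both siRNA groups covered nearly the same range. The fall was 2.38-fold with si-A1 (log2 fold change -1.25 ± 0.16 SE, adjusted p = 0.00211) and 2.46-fold with si-A2 (-1.30 ± 0.16, adjusted p = 0.00166). At 48 h, MAD2L1 read 9.40, 9.16, 8.54 and 9.03 with si-SCRL, 6.19, 6.66, 6.33 and 6.56 with si-A1 and 8.09, 7.19 and 7.85 with si-A2. The groups were separate, with si-A2 in the middle. MAD2L1 fell 6.06-fold with si-A1 (-2.60 ± 0.21, adjusted p = 0.000106), while si-A2 stood at -1.27 ± 0.23 (adjusted p = 0.0233).

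The APC/C activator and the conjugating enzyme that works with the APC/C follow. CDC20 (chr1:43358981-43363203) encodes the former, which the checkpoint restrains. At 24 h, CDC20 read 8.90, 8.97, 8.87 and 8.72 with si-SCRL, 8.12, 7.99, 7.80 and 7.62 with si-A1 and 8.10, 7.68, 7.64 and 7.45 with si-A2. The siRNA groups overlapped each other and lay below si-SCRL. The falls were 1.98-fold with si-A1 (log2 fold change -0.98 ± 0.13 SE, adjusted p = 0.00268) and 2.22-fold with si-A2 (-1.15 ± 0.13, adjusted p = 0.000997). The si-A1 call of CDC20 at 24 h was lost without si-SCRL replicate 2 or 4 or si-A1 replicate 2, 3 or 4, with an adjusted p of 0.0104 to 0.0157. At 48 h, CDC20 read 10.05, 9.81, 9.47 and 9.80 with si-SCRL, 7.65, 7.98, 7.10 and 6.93 with si-A1 and 8.82, 7.66 and 8.10 with si-A2. Both groups lay below si-SCRL and overlapped each other. CDC20 fell 5.16-fold with si-A1 (-2.37 ± 0.17, adjusted p = 7e-05) and 2.80-fold with si-A2 (-1.48 ± 0.19, adjusted p = 0.0076).

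UBE2C (chr20:45812644-45816952) encodes the ubiquitin-conjugating enzyme that works with the APC/C. At 24 h, UBE2C read 6.97, 6.75, 7.36 and 7.40 with si-SCRL, 6.42, 6.18, 6.43 and 6.96 with si-A1 and 5.85, 5.90, 5.40 and 6.77 with si-A2. Replicate 4 of each siRNA group reached the si-SCRL range. The log2 fold changes were -0.62 ± 0.26 SE with si-A1 (adjusted p = 0.324) and -1.14 ± 0.26 with si-A2 (adjusted p = 0.0549), and neither was called. At 48 h, UBE2C read 8.21, 7.93, 7.41 and 7.79 with si-SCRL, 6.17, 6.62, 6.76 and 6.64 with si-A1 and 7.12, 6.47 and 7.18 with si-A2. No si-A1 or si-A2 array reached the si-SCRL range by then. The fall with si-A1 was 2.44-fold (-1.29 ± 0.22, adjusted p = 0.00561), and si-A2 stood at -0.89 ± 0.24 (adjusted p = 0.0972). The si-A1 call of UBE2C was lost when any 1 of 7 of the 11 arrays was left out (each si-A1 array and si-SCRL replicates 1, 2 and 4), with an adjusted p of 0.0104 to 0.0192.

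FBXO5 (chr6:152970535-152983579), the APC/C inhibitor of S and G2 phase, was lowest with si-A2 at 24 h and with si-A1 at 48 h. At 24 h, FBXO5 read 5.15, 5.20, 5.94 and 5.66 with si-SCRL, 4.52, 3.82, 3.95 and 4.52 with si-A1 and 3.50, 2.48, 3.11 and 2.75 with si-A2. The 3 groups were separate, with si-A2 lowest and not well above background by the scanner software's call. The fall with si-A2 was at least 2.76-fold (adjusted p = 0.000508), and si-A1 stood at a log2 fold change of -1.28 ± 0.27 SE (adjusted p = 0.0318). At 48 h, FBXO5 read 5.99, 5.88, 5.51 and 5.97 with si-SCRL, 2.90, 3.05, 2.63 and 3.31 with si-A1 and 4.87, 3.61 and 4.41 with si-A2. Now si-A1 was lowest and not well above background on any of its 4 arrays. This makes its fall at least 6.11-fold (adjusted p = 0.000141), and si-A2 stood at -1.49 ± 0.26 (adjusted p = 0.0229).

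Securin and separase are the pair through which the APC/C starts anaphase. PTTG1 (chr5:160421855-160428744) encodes securin. At 24 h, PTTG1 read 6.999, 7.21, 7.63 and 7.13 with si-SCRL, 6.06, 5.69, 5.69 and 5.27 with si-A1 and 6.55, 6.68, 6.73 and 6.94 with si-A2. The si-A2 arrays lay between the other groups without overlap. PTTG1 fell 2.96-fold with si-A1 (log2 fold change -1.57 ± 0.20 SE, adjusted p = 0.00158), and si-A2 stood at -0.52 ± 0.20 (adjusted p = 0.306). At 48 h, PTTG1 read 7.54, 7.07, 6.61 and 7.28 with si-SCRL, 4.15, 4.44, 3.58 and 4.30 with si-A1 and 5.11, 4.26 and 5.11 with si-A2. Both groups were more than a unit below si-SCRL. The falls were 8.04-fold with si-A1 (-3.01 ± 0.25, adjusted p = 0.000122) and 4.70-fold with si-A2 (-2.23 ± 0.27, adjusted p = 0.00675), the largest si-A2 estimate of the 9 genes at that time.

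ESPL1 (chr12:53268299-53293638) encodes separase and had the smallest estimates of the 9 genes at 48 h. At 24 h, ESPL1 read 8.61, 8.36, 7.77 and 8.06 with si-SCRL, 7.64, 7.55, 7.20 and 7.38 with si-A1 and 7.64, 7.57, 7.40 and 7.33 with si-A2. All siRNA arrays were below si-SCRL, but the log2 fold changes of -0.76 ± 0.13 SE (si-A1, adjusted p = 0.0126) and -0.72 ± 0.13 (si-A2, adjusted p = 0.0199) missed the threshold. At 48 h, ESPL1 read 9.33, 9.49, 8.97 and 9.21 with si-SCRL, 8.43, 8.84, 8.36 and 8.43 with si-A1 and 8.92, 8.41 and 8.65 with si-A2. The siRNA groups overlapped each other and stayed below si-SCRL. The fall with si-A1 was 1.66-fold (-0.73 ± 0.12, adjusted p = 0.00432), and si-A2 stood at -0.54 ± 0.13 (adjusted p = 0.0667). The si-A1 call of ESPL1 was lost when any 1 of 6 of the 11 arrays was left out (si-SCRL replicates 1, 2 and 4, si-A1 replicates 1, 3 and 4), with an adjusted p of 0.0110 to 0.0157.

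The siRNAs were also compared with each other. At 24 h, 0 of the 9 genes were called (limma, 0.366% of all probes, 0.114% lower and 0.252% higher), and PTTG1 and FBXO5 were the 2 with an unadjusted p under 0.05. PTTG1 was 1.05 ± 0.20 SE higher with si-A2 on the log2 scale (adjusted p = 0.0290, 0.74 and 1.36 within the slides) and FBXO5 at least 1.13-fold lower (adjusted p = 0.0517). For the other 7 genes the 95% confidence interval of the difference included 0, for MAD2L1 from -0.41 to 0.32, for CDC20 from -0.46 to 0.13 and for ESPL1 from -0.25 to 0.33. The arrays of si-A2 lay wholly below those of si-A1 for 2 genes, BUB1 and FBXO5 (4.93% of all probes), and wholly above for PTTG1 (5.61%). At 48 h all 9 genes read higher with si-A2 than with si-A1, with a median difference of 0.88 on the log2 scale against -0.04 over all probes. TTK was the 1 gene called, at least 2.15-fold higher with si-A2 (adjusted p = 0.00836), where 0.982% of all probes were called higher, 0.465% lower and 1.45% in either direction. FBXO5 was at least 2.10-fold higher (adjusted p = 0.0214). The differences of MAD2L1 (1.33 ± 0.23, adjusted p = 0.0129), BUB1B (1.33 ± 0.23, adjusted p = 0.0140) and CDC20 (0.88 ± 0.19, adjusted p = 0.0304) did not reach the threshold either. Those of BUB1 (0.69, adjusted p = 0.179) and PTTG1 (0.78, adjusted p = 0.146) were further from it, and for UBE2C and ESPL1 the interval included 0, from -0.14 to 0.94 and from -0.10 to 0.49. The si-A2 and si-A1 arrays did not overlap for 5 genes (BUB1, BUB1B, MAD2L1, TTK and FBXO5), as for 7.87% of all probes in that direction and 7.19% in the other. The BUB1 difference was -0.23 when the flag of that spot was ignored, and the PTTG1 difference was -0.25 with the dim array kept. The call for TTK was lost whichever of the 11 arrays was left out. With the replicate number as a block, 257 of all probes were called at 48 h in place of 654, TTK among them.

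**Figure D3:**
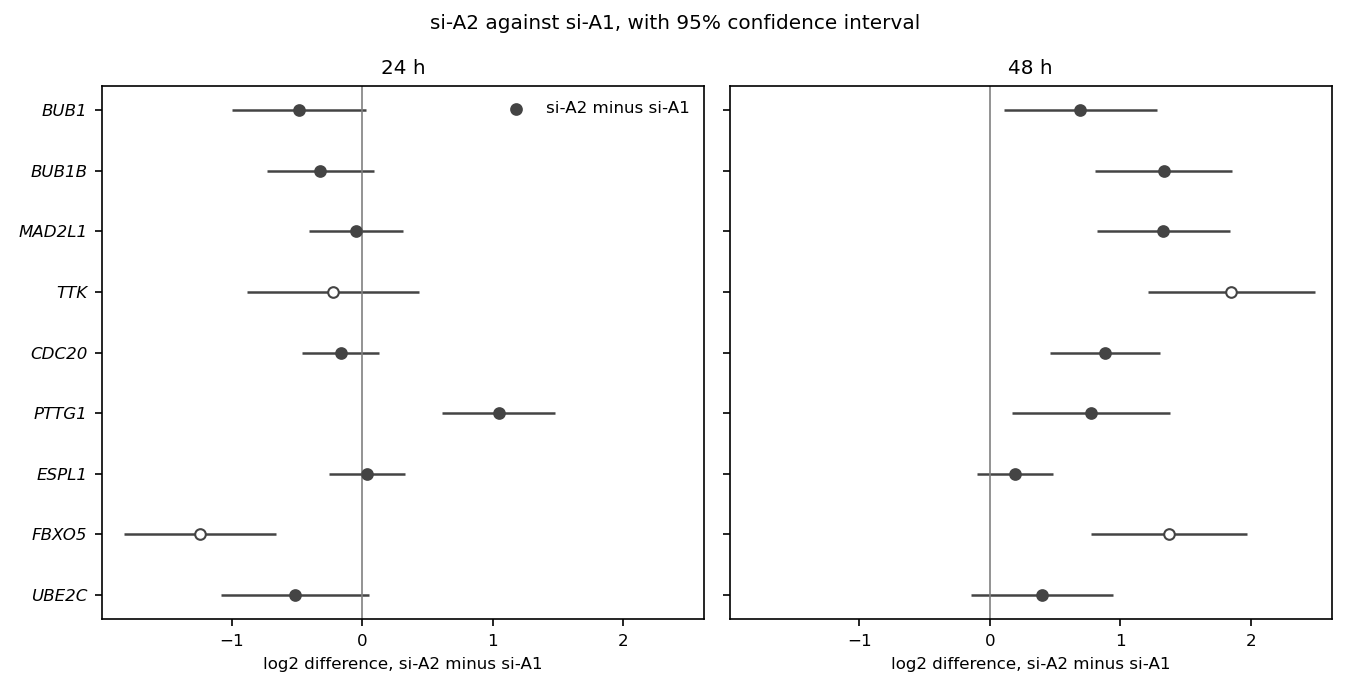
Log2 difference between si-A2 and si-A1 (horizontal axis, si-A2 minus si-A1) of the 9 genes at 24 h (left) and 48 h (right), with 95% confidence intervals; open points mark groups that lay near background on all their arrays. Points at 24 h lie on both sides of 0 and all 9 points at 48 h lie right of 0, and the fitted value of an open point is not a measured size.

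Whether an effect changed from 24 h to 48 h was tested as the difference between both effects over 35826 probes that passed the background threshold on both array versions. Time point and array version cannot be told apart in this test. For si-A1, CDC20 was the 1 gene called. The 48 h effect minus the 24 h effect was -1.35 ± 0.21 SE on the log2 scale (adjusted p = 0.00564, 0.101% of all probes called lower, 0.0586% higher and 0.159% in all), and with the replicate number as a block it missed the threshold (adjusted p = 0.0164). The CDC20 call was lost when any of 12 of the 23 arrays was left out, with an adjusted p of 0.0124 to 0.0193. MAD2L1 (-1.36 ± 0.26, adjusted p = 0.0228) and PTTG1 (-1.37 ± 0.31, adjusted p = 0.0448) had estimates of the same size. The estimates of FBXO5 (-1.22, adjusted p = 0.159) and BUB1B (-0.91, adjusted p = 0.157) were also below 0, and that of ESPL1 was 0.05 with an interval from -0.29 to 0.39. For si-A2, 0 of the 9 genes were called (limma, 0.0335% of all probes, 0.00279% lower and 0.0307% higher), and 4 had an unadjusted p under 0.05. Of these, PTTG1 had an estimate below 0 (-1.69 ± 0.32, adjusted p = 0.0558), while BUB1B (0.78 ± 0.30, adjusted p = 0.531), TTK (1.45 ± 0.44, adjusted p = 0.370) and FBXO5 (1.46 ± 0.40, adjusted p = 0.286) had estimates above 0. The estimates for TTK and FBXO5 rest on groups that were not well above background.

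Other checkpoint genes, 18 in all, included kinetochore scaffolds, motors and the proteins that guard centromeric cohesin. For genes with several probes the brightest was used. With si-A1, 8 of the 18 fell at 24 h and 11 at 48 h, with medians of -1.12 and -1.77 on the log2 scale. With si-A2, 8 fell at 24 h and 2 at 48 h (CENPF and SGO2, named after their values were seen), with medians of -0.96 and -0.87. Both 48 h calls were lost with the replicate number as a block, where no probe passed for si-A2. None was called higher. SGO1, the shugoshin that shields centromeric cohesin, had log2 fold changes of -2.69 with si-A1 and -2.87 with si-A2 at 24 h (called, adjusted p = 0.00711 and 0.00509), its probe being well above background on 2 and on 1 of the 4 arrays. A second, dimmer SGO1 probe stood at -1.11 and -1.15 there and was not called. HASPIN, the kinase of histone H3 that positions the chromosomal passenger complex, stood at -1.89 and -2.68, both called, though its probe was well above background on only 1 of 4 si-A2 arrays. KNL1, the scaffold to which BUB proteins bind, was not well above background with either siRNA at 24 h and fell at least 2.67-fold with si-A1 and at least 2.26-fold with si-A2, and at least 7.73-fold with si-A1 at 48 h. ZWINT, a kinetochore protein that binds KNL1, stood at -1.94 and -2.20 at 24 h, both called, with adjusted p = 0.000327 and 0.000131. The genes nearest to no change at 24 h were ZW10, part of the complex that brings dynein to kinetochores (0.02 and -0.06), and MAD2L1BP, whose product takes MAD2 out of the inhibitory complex (-0.003 and 0.11).

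The subunits of the enzyme itself come next. Of 14 APC/C subunit genes, 0 were called with either siRNA at 24 h (limma, 3 with an unadjusted p under 0.05 for si-A1 and 1 for si-A2), and the medians were -0.02 and 0.07 on the log2 scale. ANAPC10, a substrate receptor subunit, stood at -0.13 and 0.06, and ANAPC2, the cullin subunit, at -0.01 and 0.09. At 48 h, 3 of 13 measured subunit genes fell with si-A1 (ANAPC1, ANAPC2 and CDC23, named after their values were seen, as are the cohesin genes below) and 0 with si-A2 (3 with an unadjusted p under 0.05), with medians of -0.45 and -0.17. Of 10 other partners of the APC/C, MASTL fell at 24 h with si-A1 (-0.89, adjusted p = 0.00243) and with si-A2 (-1.09, adjusted p = 0.0007). MASTL encodes Greatwall kinase, which keeps the phosphatase that opposes mitotic entry inactive. At 48 h, 4 of the 10 fell with si-A1 and 0 with si-A2 (4 with an unadjusted p under 0.05). ENSA, a substrate of MASTL (0.11 and 0.04, and -0.23 and -0.20 by a second probe), and CUEDC2 (-0.04 and 0.18) were nearest to no change at 24 h.

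Of 21 genes whose products the APC/C marks for destruction, 13 fell with si-A1 and 11 with si-A2 at 24 h, with medians of -1.14 and -1.20 on the log2 scale, and of 20 measured at 48 h, 16 fell with si-A1 and 4 with si-A2, with medians of -2.46 and -1.27. The 4 si-A2 calls at 48 h were lost with the replicate block. RRM2, the regulated subunit of ribonucleotide reductase, stood at -3.12 with si-A1 and -2.88 with si-A2 at 24 h, both called. ANLN, which encodes anillin of the cytokinetic ring, stood at -3.28 and -2.58, both called, its probe being well above background on 2 of 4 arrays of each siRNA. The spindle motor gene KIFC1 stood at -2.33 and -2.37, both called (adjusted p = 5.5e-05 and 3.42e-05). CDCA5, which encodes sororin, a protector of cohesion, fell at least 4.12-fold with si-A2 and stood at -1.67 with si-A1 (adjusted p = 0.0499). CDCA3 (0.21 and -0.14) and, by its brightest probe only, CCNB1, the mitotic cyclin B1, were nearest to no change at 24 h. The brightest CCNB1 probe read 0.33 and 0.26 at 24 h and 0.83 with si-A1 at 48 h, whereas the other CCNB1 probe read -0.71 and -0.79 at 24 h (adjusted p = 0.0252 and 0.0163) and fell by 2.75 with si-A1 at 48 h (adjusted p = 0.000202), so the array gave no single value for this gene.

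Of 8 genes of cohesin and its regulators, 0 were called with either siRNA at 24 h (limma, 3 with an unadjusted p under 0.05 for each), with medians of -0.32 for both. The study itself listed SMC1A, 1 of the 8, among the genes that fell 24 h after TAPIR-1 knockdown. Why the calls differ was not tested. At 48 h, RAD21, SMC1A, SMC3 and STAG1, all of them ring or ring-bound subunits, fell with si-A1, and RAD21 and SMC1A with si-A2. RAD21 encodes the subunit that separase cuts, and its log2 fold changes were -1.29 and -0.90 (adjusted p = 0.000114 and 0.0076). The si-A2 calls of RAD21 and SMC1A were lost with the replicate block. PDS5A (-0.01 and -0.10, and -0.44 and -0.54 by a second, dimmer probe, not called) and PDS5B (0.05 and -0.08), which regulate cohesin release, were nearest to no change at 24 h.

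**Figure D4:**
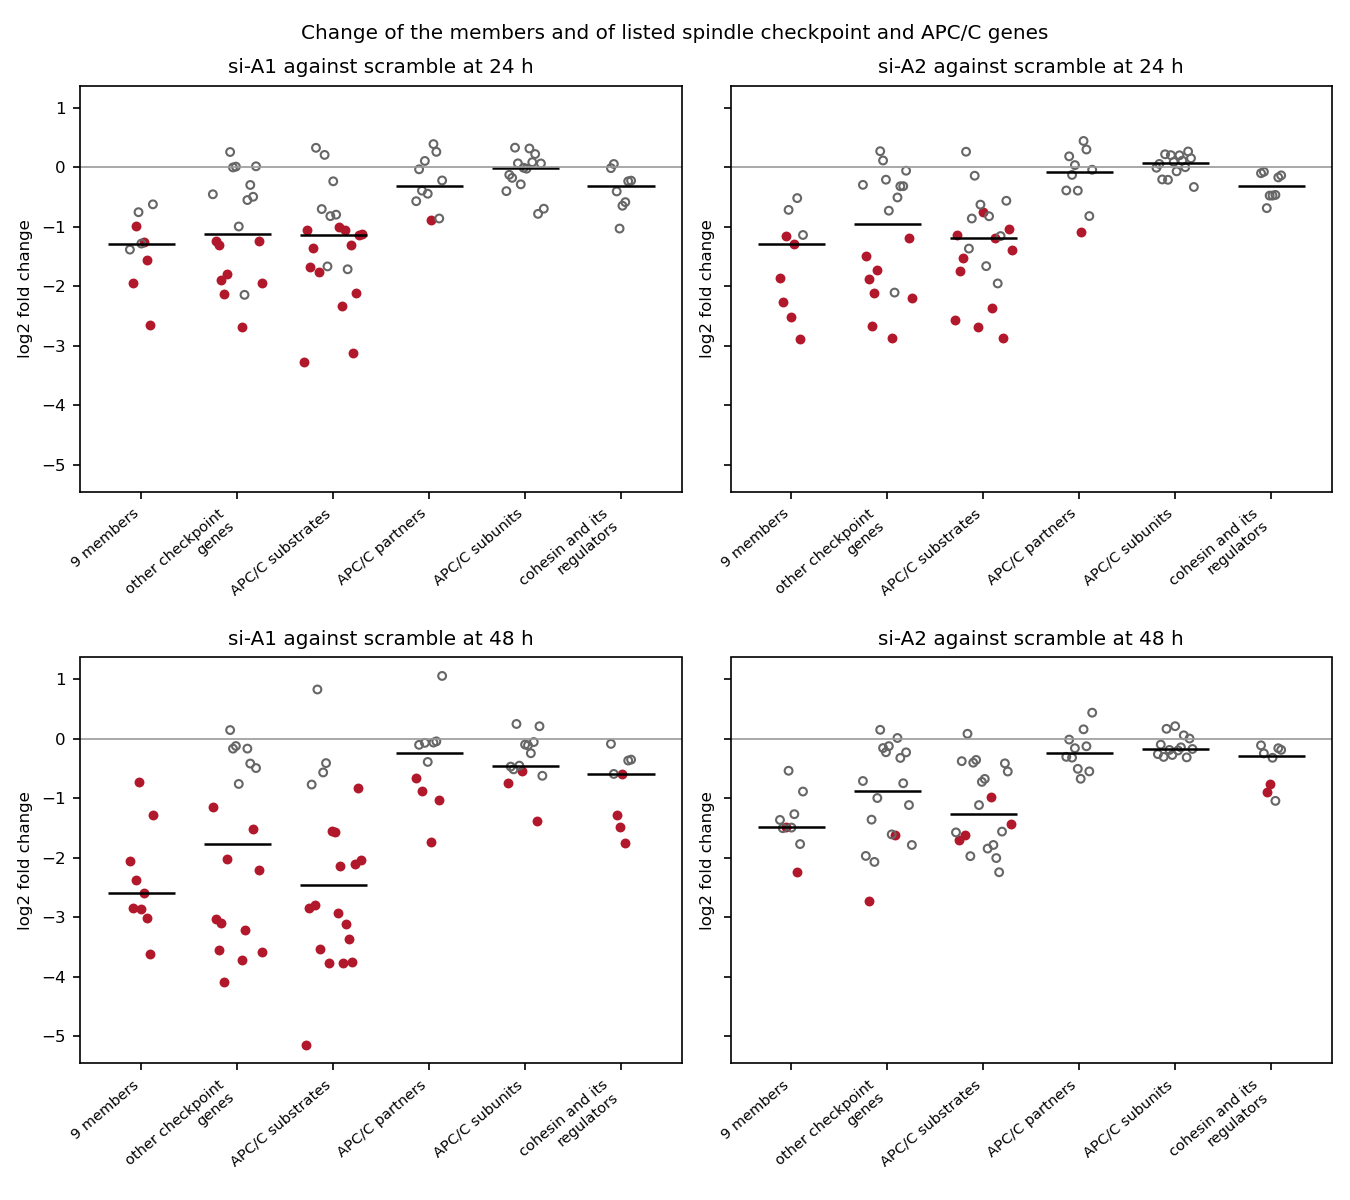
Log2 fold change against si-SCRL (vertical axis) of the 9 genes and of 5 lists of related genes in each of the 4 comparisons; each point is 1 gene, filled points were called, open points were not, and black lines are medians. At 24 h the APC/C subunits lie around 0, with medians of -0.02 (si-A1) and 0.07 (si-A2), and no point in any panel was called above 0.

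The 5 other genes whose pattern over the arrays was most like the mean of the 9 genes were histone genes. Over 23 arrays, with each value centred on the mean of its time point, Pearson's r was 0.992 for H2BC8 and for H2BC5, 0.99 for H2BC4 and for H2BC11, and 0.986 for H2AC4, the highest of 17669 genes compared. ZWINT came next (0.986), and TOP2A (0.984), TPX2 (0.982) and CCNA2 (0.982) were also among the first 15. These points share arrays, slides and normalization, and histone genes of a family are near-identical copies whose probes may share signal. Values were not centred on their siRNA group, so the differences from si-SCRL given above enter every r, also those among the 9 genes. Measured the same way, the r of each of the 9 genes with the mean of the other 8 ran from 0.825 (ESPL1) and 0.83 (UBE2C) to 0.991 (BUB1B). PTTG1 had an r of 0.841.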

How the data were processed

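Total RNA of 24 LNCaP cultures, 4 biological replicates per siRNA and time point by the study's account, was hybridised to 1-colour arrays. The deposited scanner files hold intensity values, which the authors extracted with Feature Extraction 11.5.1.1. The authors also deposited normalized log2 values, quantile-normalized per the study's methods, with limma 3.34.8 and R 3.4.3 named in the submitters' processing notes, and those entered only as an alternative. Here the log2 processed intensity of 23 arrays was quantile-normalized per time point for comparisons within it. Spots flagged as outliers were left out, control spots dropped and repeated spots averaged. Probes above the mean plus 3 SD of 308 negative control spots on at least 3 arrays were fitted with limma 3.58.1 (R 4.3.3), with siRNA group and slide as terms and Benjamini-Hochberg adjustment over all of them. The change with time was an interaction contrast over all 23 arrays, quantile-normalized together over the probes that both array versions share. The study's filter on the interquartile range was an alternative, because it depends on the differences tested. Normexp background correction used the median spot signal, since the files hold no mean signal.

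At 24 h and 48 h, 29033 of 50599 and 31104 of 58201 probes were named through their RefSeq accession. All 9 members passed the background threshold at both times. Of the related genes, those named were the 4 called genes of each list with the largest mean change at 24 h and the 2 nearest to no change. The members and lists were chosen with earlier results of these data known. Same-numbered replicates correlated, as deviations from group means, by -0.147 to 0.159 at 24 h, where the numbers were not taken to pair samples. At 48 h they correlated by 0.179 to 0.354, and other arrays of the same slide by 0.0985 to 0.292. Whether the numbers pair samples there or only mark the slide cannot be told from these values. The main fit held the slide, and fits with the replicate number as a block are given beside it. Array number limits the precision: 4 arrays per group, 3 for si-A2 at 48 h.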

Additional observations from a re-analysis of the deposited data

Results flagged for a closer look

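Among 44 groups of 4 arrays, 4 held an array far from the others, and chance flags about 1 in 20 groups. BUB1B read 9.42 and TTK 6.99 on si-SCRL replicate 3 at 24 h, both above the other si-SCRL arrays. That array had the lowest median processed intensity at 24 h (24.37). It was also the highest si-SCRL array for BUB1, MAD2L1, PTTG1 and FBXO5, the lowest for ESPL1, and neither for CDC20 and UBE2C. The part of its intensity in these readings was not tested. MAD2L1 read 7.15 on si-A1 replicate 4 at 24 h, below the others of its group. ESPL1 read 8.84 on si-A1 replicate 2 at 48 h, above the others of its group. The effect of si-A1 on CDC20 differed between 24 h and 48 h by -1.35 on the log2 scale in the interaction test. On the dim array that was left out (si-A2 replicate 2 at 48 h), BUB1 read 8.19, above the si-SCRL range of 6.44 to 7.02 in the normalization that includes this array, while none of the other 8 members read above its si-SCRL range there.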

How the results depend on the processing

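Against si-SCRL, no member changed direction under any alternative that gave a value, 26 at most for each. The counts of members called moved more. With only the compared groups in the fit, si-A1 called 1 and si-A2 called 3 members at 24 h. Over all probes these fits called 175 and 191, in place of 494 and 416. With the interquartile filter, which left 8 members tested, si-A1 called 3 and si-A2 called 5 (279 and 276 of all probes). Each siRNA called 7 there with normexp, without background correction or with the filter on probes well above background. Those settings called 661, 665 and 641 of all probes for si-A1, and 529, 531 and 494 for si-A2. The si-A1 count was 6 with the authors' values, without slide term or filter, or with the slide as random. Keeping the dim array left 1 member called for si-A1 at 48 h, and 27 of all probes in place of 2761. The si-A2 count at 48 h was 7 without background correction, 6 with normexp and 4 with the filter on probes well above background. Over all probes these settings called 755, 592 and 389, in place of 201. With the slide fitted as random 3 members and 288 of all probes were called. The member count was 1 with the interquartile filter, without a filter or without the slide term (67, 143 and 110 of all probes). With the dim array kept, with only the compared groups or with the replicate block, 0 members and 0 of all probes were called. The count for si-A2 against si-A1 at 48 h was 3 without background correction, with normexp or with the filter on probes well above background. Over all probes these called 1086, 776 and 957, in place of 654. The member count was 0 with the dim array kept, with scaling on the 75th percentile, without a filter, without the slide term or with only the compared groups. All-probe counts there were 0, 632, 560, 332 and 6. The change of the si-A1 effect had 0 member calls with the dim array kept, the interquartile filter, the replicate block, the slide fitted as random or no slide term. In these settings 0, 15, 37, 66 and 32 of all probes were called, in place of 57. At 24 h the numbers were not taken to pair samples, and the replicate block changed no count of members there, while probes called fell from 494 to 320 (si-A1), from 416 to 305 (si-A2) and from 164 to 46 (si-A2 against si-A1). The cause of these differences was not tested.

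Leaving out 1 array at a time gave 3 to 6 members (si-A1) and 6 to 7 (si-A2) at 24 h, 7 to 9 and 0 at 48 h. Between the siRNAs it gave 0 at 24 h and 0 to 2 at 48 h, the latter without si-A2 replicate 3, where BUB1B (1.61, adjusted p = 0.00499) and FBXO5 (1.69, adjusted p = 0.00874) were called. For the changes with time it gave 0 to 2 (si-A1; MAD2L1 was called at -1.53, adjusted p = 0.00543, without si-SCRL replicate 3 at 24 h) and 0 (si-A2).

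Some small differences turned in sign. With outlier flags ignored, an alternative chosen after seeing the data, BUB1 stood at 0.41 for the change of the si-A1 effect and at -0.23 for si-A2 against si-A1 at 48 h. PTTG1 stood at -0.25 for that difference with the dim array kept. ESPL1 (change of the si-A1 effect) stood at -0.0347 without background correction and -0.0520 with normexp, and ran from -0.0520 to 0.143 over all settings, turning to -0.0301 without si-SCRL replicate 1 at 24 h and to -0.0065 without si-A1 replicate 2 at 48 h. MAD2L1 (change of the si-A2 effect) stood at -0.55 with the dim array kept, -0.0351 without background correction, -0.0085 without the slide term and -0.0537 with normexp, and ran from -0.126 to 0.259 with 1 array left out. Its difference between the siRNAs at 24 h ran from -0.109 to 0.0078 that way. UBE2C (change of the si-A2 effect) stood at -0.0951 without background correction and -0.0947 with normexp, and ran from -0.0296 to 0.477 with 1 array left out. With scaling on the 75th percentile, the share of lower calls among all probes for the change of the si-A1 effect was 73.81% in place of 63.16%. Dim probes limit TTK and FBXO5, whose siRNA groups lay partly near background.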
